A study of Mus musculus with 6 samples.

Results

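The lysosome members described here are 51 genes, taken by symbol from the 32285 genes of the deposited matrices, which encode the hydrolases, membrane proteins and proton pump of the lysosome. They comprised 9 cathepsins and related proteases, 12 glycosidases and sulfatases, 6 lipid enzymes and transporters, 5 membrane proteins, the activator precursor Psap with the progranulin gene Grn, the regulators Tfeb and Tfe3, 7 subunits of the membrane sector of the pump (V0, with its accessory subunit) and 8 subunits of its cytosolic sector (V1). All 51 were found, and each was read in every cell type, microglial state and genotype. Symbols were matched to 1 gene identifier each.

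Lysosomes are acidic compartments in which material taken up by phagocytosis, endocytosis or autophagy is degraded. The vacuolar ATPase pumps protons into them, the hydrolases act at the resulting low pH, and transcription factors of the TFEB family bind E-box sites in the promoters of many of their genes. Microglia, the phagocytes of the brain parenchyma, depend on this system when they clear debris and amyloid, and several members are genes of lysosomal storage disorders that affect the brain.

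The study measured nuclear RNA in NeuN-negative nuclei, that is nuclei sorted as lacking a neuronal nuclear protein, from frozen cortex of 7.5-month-old mice. There were 3 genotypes with 2 libraries each (replicates 2 and 3): 5xFAD, labelled as the strain alone, 5xFAD;M28L and 5xFAD;P522R, written below as 5xFAD-M28L and 5xFAD-P522R. All 3 groups carried 5xFAD, a mouse model of amyloid deposition whose transgenes are driven in neurons, so no library without amyloid pathology was compared. M28L and P522R are variants of Plcg2, a phospholipase C that microglia express, and the series asks how they alter microglial phenotypes. Each library was loaded to hold 5000 nuclei from male and 5000 from female mice. The labels do not say whether replicates came from separate animals, so p-values measure the spread between these libraries, which may be technical.

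Libraries held 9269 to 13783 barcodes and 53326947 to 72288942 UMIs (unique molecular identifiers, counts of captured RNA molecules), with medians of 3842 to 4972 UMIs per barcode. After quality filters and removal of doublets, 60085 nuclei remained, of which 7916 were microglia-like (879 to 1724 per library). In microglia-like nuclei Cx3cr1 was at 694 CPM (UMIs of the gene scaled to a common library total) and P2ry12 at 788, both microglial markers, while the border macrophage marker Mrc1 was at 6.62. In 5xFAD replicate 2, only 3 of 454 microglia-like nuclei with Xist UMIs (from female mice) were disease-associated-like, 0.661% (exact 95% interval 0.137% to 1.92%). This interval takes nuclei as independent draws and does not measure the spread between animals or libraries. Of the 525 nuclei with Y-linked UMIs in that library, 22.9% were disease-associated-like. In the other libraries 13.2% to 48.6% of nuclei with Xist UMIs were. 5xFAD-P522R replicate 3 was processed with an older version of Cell Ranger, and it held 334 of the 543 nuclei of a microglial sub-cluster with oligodendrocyte markers, which was set apart. Values without one or both of these libraries are given beside the main results.

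The E-box of the TFEB family was looked for first in the promoter sequences, because the members are known as a co-regulated set. RefSeq promoter windows (GRCm38.p6, 250 bases before to 50 bases after each transcription start) were at hand for 42 of the 51 members. The core CACGTG, which reads the same on both strands, lay in the windows of 14 of the 42 (33.3%), against 8.09% of all 27025 genes with a window and 11.6% of the 10325 that were tested in microglia-like nuclei. The longer TCACGTG, searched on both strands and containing that core, lay in 13 of the 42 (31.0%), against 4.29% and 7.07%. The full TCACGTGA lay in 7 of the 42 (16.7%), against 1.12% and 2.15%: Ctsa, Ctsd, Gla, Mcoln1, Atp6v0d1, Atp6v0e and Atp6v1a. The stretches upstream of the RefSeq start that hold it in members described below are shown 5′ to 3′ on the gene's strand, with the motif in capitals. Upstream refers to that start only. By the GENCODE gene bodies used further below, the stretches of Ctsd and Atp6v1a and the nearer one of Mcoln1 lie inside the gene. Of the members shown, Gla and Mcoln1 each carried more than 1 E-box. So did Lamp1 and Atp6v0b, which lacked the full TCACGTGA and are not shown.
Ctsd (chr7:142387909-142387936, minus strand): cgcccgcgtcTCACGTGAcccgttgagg
Gla, nearer to the start (chrX:134601183-134601210, minus strand): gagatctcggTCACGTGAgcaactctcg
Gla, farther from the start (chrX:134601216-134601243, minus strand): aagcgattgaTCACGTGAgcatctacgt
Mcoln1, nearer to the start (chr8:3500463-3500490, plus strand): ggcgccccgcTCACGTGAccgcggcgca
Mcoln1, farther from the start, with TCACGTG (chr8:3500437-3500464, plus strand): gtcgcgcttgTCACGTGttcagttcagg
Atp6v1a (chr16:44139374-44139401, minus strand): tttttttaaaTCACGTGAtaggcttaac
Matches were spread over the roles: 5 of 12 glycosidases and sulfatases, 2 of 7 cathepsins, 2 of 5 membrane proteins, 3 of 6 V0 and 1 of 4 V1 subunits with a window held TCACGTG, and none of the 4 lipid genes, the 2 of the activator group or the 2 regulators did. A match describes these letters in these windows only.

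Across the 10 cell types, most members had their highest CPM in a myeloid type (microglia-like or border macrophage-like nuclei). By UMIs per nucleus 20 of 51 did (all genes: 9.28%). Levels here are CPM of UMIs summed per library and cell type, given as the mean ± SD over all 6 libraries; cell types were named from clusters of the same nuclei, so the differences are described without a test. Of 51 members, 18 were highest in microglia-like nuclei (all genes: 15.7%), and 35 were highest in either microglia-like or border macrophage-like nuclei (all genes: 27.5%). Without those 2 libraries the counts were also 18 and 35. A further 8 were highest in endothelial-like, 3 in committed oligodendrocyte precursor-like, 2 each in oligodendrocyte-like and fibroblast-like and 1 in astrocyte-like nuclei, and none in neuron-like, OPC-like (oligodendrocyte precursor) or pericyte or smooth muscle-like nuclei. In 11 members the microglial level exceeded that of each of the 9 other types in 6 of 6 libraries (all genes: 4.89%); this held for 4 members counted as UMIs per nucleus (all genes: 1.95%) and 9 with called doublets kept (all genes: 4.57%). The median ratio of the microglial level to the mean of the 8 non-myeloid types was 2.13 over the members and 0.942 over all 16520 genes compared.

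**Figure D1:**
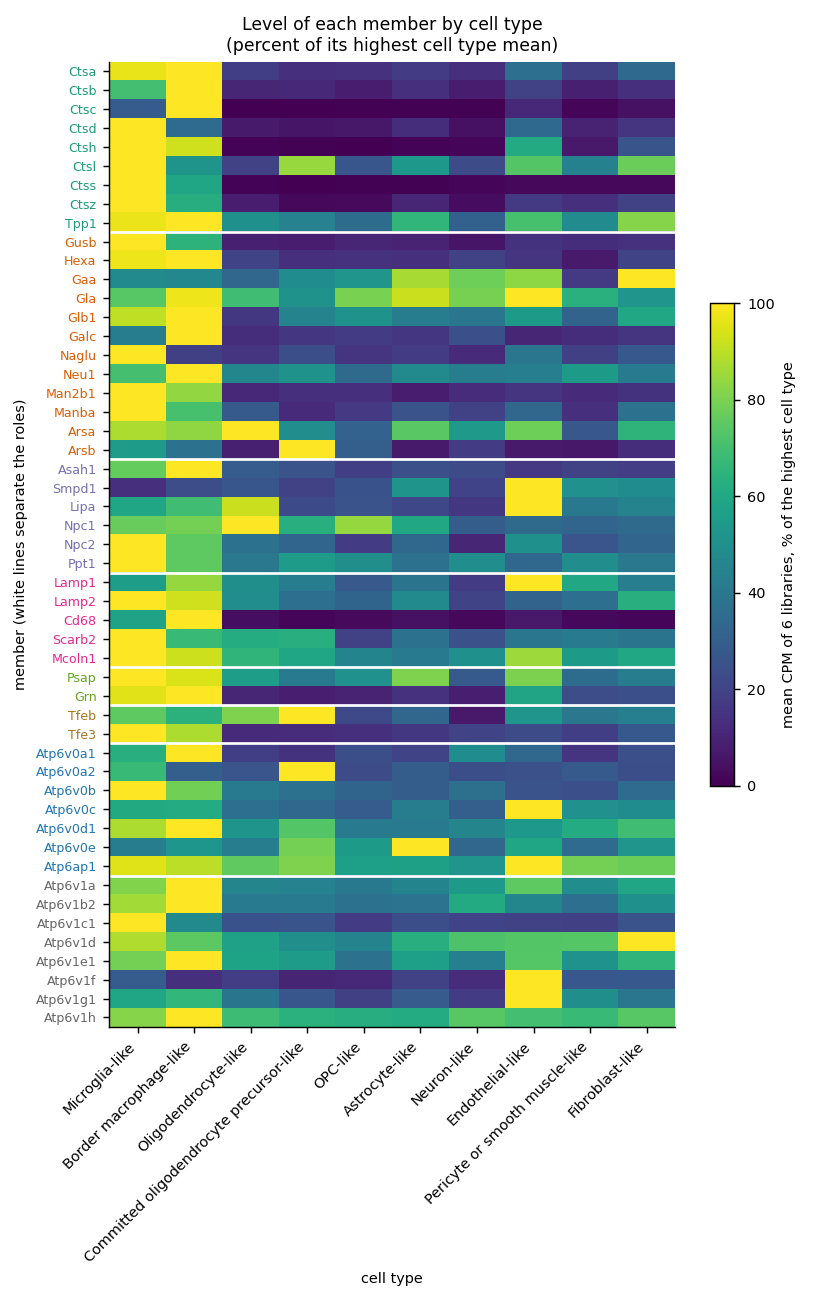
Level of the 51 members (rows, grouped by role) in 10 cell types (columns), as the mean CPM of 6 libraries in percent of the member's highest cell type. The 2 columns at the left hold the highest value of 35 members, and the rows of Ctss, Ctsc and Cd68 are near 0 in most other columns.

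By role, the contrast was widest for the proteases. The 9 cathepsins had a median ratio of microglia-like to non-myeloid nuclei of 8.12 (range 1.81 to 77.8), and all 9 were highest in one of the myeloid types. Ctss, an elastolytic cysteine protease that remains active at neutral pH, was at 475 ± 23.3 CPM in microglia-like and 280 ± 28.7 in border macrophage-like nuclei, and between 1.77 and 10.9 in every other type. Ctsc, the dipeptidyl peptidase that activates serine proteases of granulocytes and lymphocytes, had the widest range of its role, from 552 ± 120 CPM in border macrophage-like through 160 ± 17.3 in microglia-like to 0.303 ± 0.741 in committed oligodendrocyte precursor-like nuclei. Ctsd, the main aspartic protease of the lysosome, was at 269 ± 49.7 CPM in microglia-like and 94.5 ± 34.2 in border macrophage-like nuclei. The 24 to 154 endothelial-like nuclei per library came next for Ctsd, at 91.9 ± 19.7, which overlaps the border macrophage value. As a guide to RNA from other cells, P2ry12 was at 788 CPM in microglia-like and 5.91 to 26.9 in the non-myeloid types, and at 408 in border macrophage-like nuclei, and the part of such RNA in the levels of the members was not tested.

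The other enzymes were less sharply divided. The 12 glycosidases and sulfatases had a median ratio of 2.51, and Gusb, which cleaves glucuronic acid from glycosaminoglycans, the largest at 9.51. Arsb, the sulfatase that acts on dermatan and chondroitin sulfate, was highest in committed oligodendrocyte precursor-like nuclei at 796 ± 129 CPM, followed by microglia-like nuclei at 438 ± 48.9 and OPC-like nuclei at 240 ± 26.2, with 69.8 ± 3.87 in mature oligodendrocyte-like nuclei. Among lipid genes (median ratio 1.83), Asah1, the acid ceramidase, was at 211 ± 25.6 CPM in border macrophage-like and 162 ± 10.5 in microglia-like nuclei, and at 34.9 to 61.6 elsewhere. Npc1, which moves cholesterol out of the lysosome, was highest in oligodendrocyte-like nuclei at 125 ± 8.12 CPM, and Smpd1, the acid sphingomyelinase, was lowest in microglia-like nuclei at 3.02 ± 0.519 and highest in endothelial-like nuclei at 22.7 ± 7.24. Thus the lipid genes included members whose highest type was not myeloid.

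Among membrane proteins, Cd68, a glycoprotein of macrophage lysosomes, was at 43.7 ± 18.7 CPM in border macrophage-like and 25.1 ± 6.42 in microglia-like nuclei, which overlap, and at 0.58 to 2.94 elsewhere. Lamp2, a structural protein of the lysosomal membrane that also serves chaperone-mediated autophagy, ran from 301 ± 29.1 CPM in microglia-like to 61.3 ± 3.63 in neuron-like nuclei. Psap, the precursor of the saposins that present lipids to their hydrolases, was at 234 ± 20.03 CPM in microglia-like, 221 ± 61.1 in border macrophage-like and 188 ± 35.3 in astrocyte-like nuclei, neighbours whose libraries overlapped, and at 66.6 ± 4.71 in neuron-like nuclei. Tfeb itself, the regulator of lysosomal biogenesis, was highest in committed oligodendrocyte precursor-like (164 ± 17.1 CPM) and oligodendrocyte-like nuclei (132 ± 15.5), near the 123 ± 13.1 of microglia-like nuclei, and at 11.01 ± 3.36 in neuron-like nuclei.

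The pump subunits were the most even roles, with median ratios of 1.60 for V0 and 1.46 for V1. Atp6v0a1, the a subunit isoform that is prominent in brain, was at 602 ± 92.9 CPM in border macrophage-like, 378 ± 30.5 in microglia-like and 292 ± 15.8 in neuron-like nuclei, and lowest at 88.9 ± 7.52 in committed oligodendrocyte precursor-like nuclei. Its isoform Atp6v0a2, which is best known from the Golgi, was highest in that last type at 154 CPM. Atp6v1c1, the C subunit that joins the sectors, stood out within V1, at 196 ± 32.1 CPM in microglia-like against 92.7 ± 30.6 in border macrophage-like and 35.1 ± 1.76 to 50.7 ± 16.1 in the other types. UMIs per nucleus are a scale added after the data had been seen, on which neuron-like nuclei with 15716 UMIs each lead microglia-like nuclei with 3713. Counted in this way, 9 members were highest in microglia-like nuclei (all genes: 4.31%). In neuron-like nuclei 14 were highest, a smaller share than over all genes (44.4%), and in either myeloid type 20 (all genes: 9.28%).

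Within microglia-like nuclei, hydrolases, membrane proteins and pump subunits were mostly higher in the disease-associated-like than in the homeostatic-like state. Nuclei fell into homeostatic-like (3078), transitional or cytokine-like (2019), disease-associated-like (2241), interferon-responsive-like (538) and proliferating-like (40) states, named from markers that include none of the 51 members; 1 of the 51 was among the 1000 variable genes used for clustering. State differences are therefore descriptions. The name transitional or cytokine-like rested on 3 raised markers, a share of 0.3 of its list, the lowest share allowed. The name homeostatic-like rested on 6 (0.4), and the other states had shares of 0.957 or 1. In disease-associated-like against homeostatic-like nuclei, 26 of 51 members were higher in 6 of 6 libraries (all genes: 13.1%) and 7 were lower in 6 of 6 (all genes: 11.9%), with a median difference of 0.36 in log2(CPM + 1) against -0.02 over 14662 genes. Without 5xFAD replicate 2 and 5xFAD-P522R replicate 3, 29 were higher and 7 lower in each of the remaining 4 libraries, with a median of 0.32. Agreement in 4 libraries is a weaker condition than in 6, and the share of all genes that meets it was not computed, so the counts are not comparable.

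**Figure D2:**
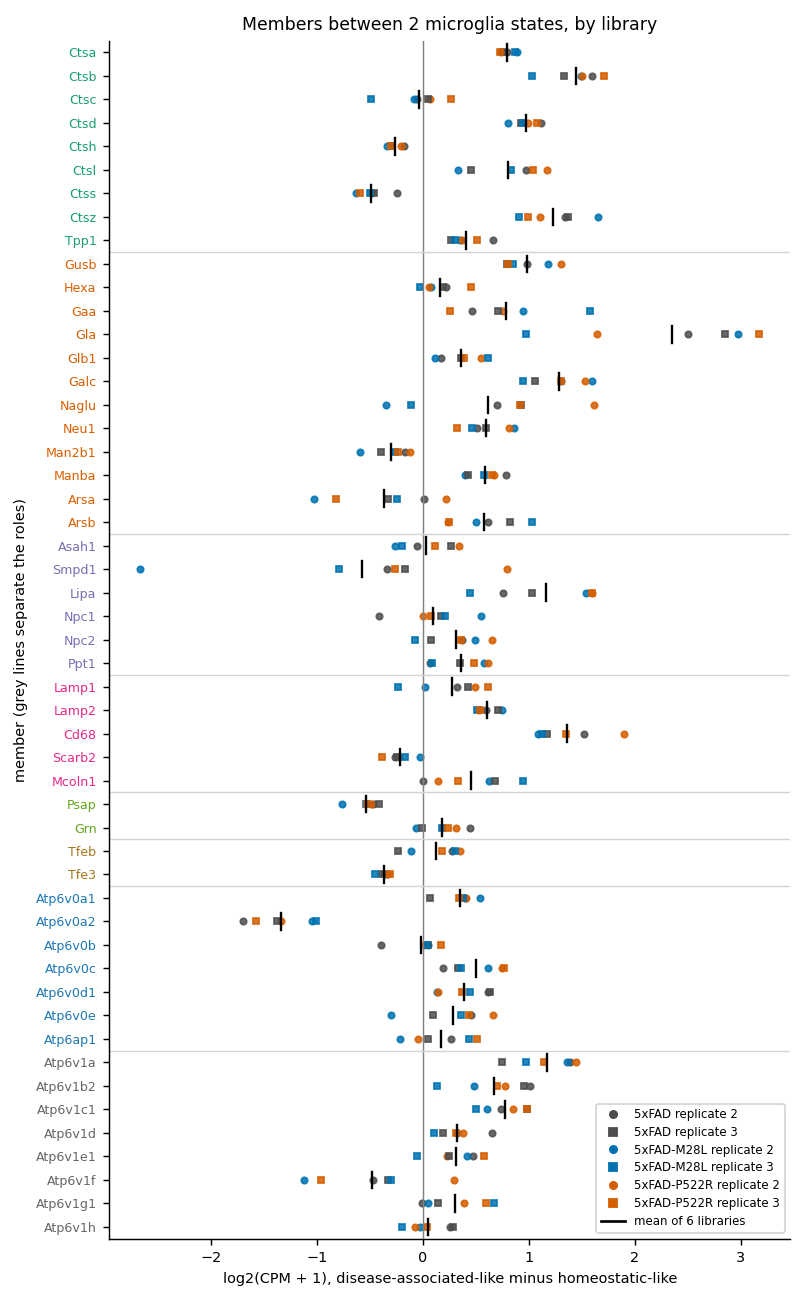
Difference in log2(CPM + 1) between disease-associated-like and homeostatic-like microglia for each of the 51 members (rows, grouped by role); points are the 6 libraries and black ticks their mean. Points of 26 members lie right of 0 in each library and those of 7 lie left of it, with Ctsb, Ctsz, Cd68, Galc and Atp6v1a among the farthest right and Atp6v0a2 farthest left of those 7.

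Most proteases were higher in the disease-associated-like state. Of 9 cathepsins, 6 were higher in 6 of 6 libraries (Ctsa, Ctsb, Ctsd, Ctsl, Ctsz and Tpp1) and Ctsh and Ctss were lower. Ctsb, a cysteine protease of phagolysosomes, was between 278 and 415 CPM (361 ± 52.8) in disease-associated-like and between 98.4 and 167 (133 ± 26.9) in homeostatic-like nuclei, a log2 difference of 1.44 with no overlap. Ctsz, a carboxypeptidase, was at 143 to 224 CPM against 65.2 to 104 (log2 difference 1.23), and Ctsd at 310 to 426 against 142 to 214 (0.98). Ctss ran the other way, from 464 to 561 CPM (528 ± 37.5) in homeostatic-like to 340 to 400 (377 ± 23.7) in disease-associated-like nuclei, a difference of -0.49, and its highest mean was in the interferon-responsive-like state, at 656 ± 120. The 2 directions thus separated cathepsins within one compartment.

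Of 12 glycosidases and sulfatases, 8 were higher in 6 of 6 libraries and only Man2b1, the lysosomal α-mannosidase, was lower. Gusb was at 218 to 300 CPM in disease-associated-like and 114 to 142 in homeostatic-like nuclei (log2 difference 0.99), and Galc, which degrades the myelin lipid galactosylceramide, at 92.9 to 108 against 31.0 to 49.9 (1.29). Gla, the α-galactosidase that hydrolyses globotriaosylceramide, had the largest difference, 2.35, but on a mean of 6.68 against 0.65 CPM and 93 UMIs over all microglia-like nuclei. Among lipid genes only Lipa, the acid lipase for cholesteryl esters, and Ppt1, which removes palmitate from proteins, were higher in 6 of 6, Lipa at 38.3 to 90.5 CPM against 22.2 to 33.4. The cholesterol transporters Npc1 and Npc2 were higher in 5 of 6 libraries, and Asah1 in 3 of 6.

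Among membrane proteins, Cd68, Lamp2 and the calcium channel Mcoln1 were higher in 6 of 6 libraries, Cd68 at 30.7 to 51.9 CPM against 11.5 to 15.4 (log2 difference 1.36). Scarb2, the receptor that carries glucocerebrosidase to lysosomes, was lower, as were Psap, at 161 to 207 CPM against 235 to 291 (-0.53), and Tfe3, a relative of Tfeb (-0.36). Tfeb itself was higher in 4 of 6 libraries and lower in 2.

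The a subunits of V0 separated in opposite directions. Atp6v0a2 was at 41.8 to 69.4 CPM in disease-associated-like and 132 to 159 in homeostatic-like nuclei, a log2 difference of -1.34 the largest among the 7 members that were lower in each library. Atp6v0a1 was at 375 to 509 CPM against 327 to 358 (0.36). Of the V1 sector, Atp6v1a, the catalytic A subunit, Atp6v1b2, Atp6v1c1 and Atp6v1d were higher in 6 of 6 libraries, with 123 to 159 CPM against 49.2 to 82.5 for Atp6v1a (1.18), and the other 4 subunits were mixed. Of the 7 members with TCACGTGA in their window, 6 were among the 23 members with a window that were higher in 6 of 6 libraries, and 1 among the other 19. The shorter TCACGTG lay in 8 of those 23 and 5 of the other 19, and the core CACGTG in 9 and 5. A link between the motif and the state difference was not tested.

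Transitional or cytokine-like nuclei had 24 members higher than homeostatic-like nuclei in 6 of 6 libraries (all genes: 8.84%) and 3 lower (7.18%), with a median difference of 0.21. Interferon-responsive-like nuclei had 9 higher (all genes: 5.33%) and 3 lower (6.23%). The mean level of Ctsb increased in the order homeostatic-like, interferon-responsive-like (216 ± 36.3 CPM), transitional or cytokine-like (271 ± 35.8) and disease-associated-like, and Atp6v0a2 ran from 172 ± 28.4 in interferon-responsive-like through 142 ± 10.8 in homeostatic-like and 86.2 ± 10.8 in transitional or cytokine-like to 56.2 ± 9.81 in disease-associated-like nuclei. Clustering without the lysosomal genes left clusters of 1801 and 1663 nuclei unnamed, and named none transitional or cytokine-like. Its disease-associated-like nuclei were fewer, 1523, with 61 and 113 in replicates 2 and 3 of 5xFAD-M28L. This narrower set gave 25 members higher than in homeostatic-like nuclei in 6 of 6 libraries (all genes: 1739 of 14662) and 5 lower (all genes: 1630 of 14662). Of these members, 23 and 5 were in the first sets too.

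The genotypes were compared in microglia-like nuclei by edgeR's quasi-likelihood test on summed counts of 13630 genes, all 6 libraries in 1 fit, with Benjamini-Hochberg adjustment over all genes. Levels here are TMM-normalised CPM, given for replicate 2 and then replicate 3. No member passed an adjusted p of 0.05 in any of the 3 contrasts by edgeR, nor among the 47 to 51 members to which DESeq2 gave an adjusted p. The contrasts share groups with each other, so their values are given side by side and not as independent evidence.

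In 5xFAD-P522R against 5xFAD-M28L, 0 of 51 members were called (all genes: 0.00734%, 1 gene). At an unadjusted p under 0.05 there were 6 (all genes: 8.44%), all higher in 5xFAD-P522R. The fold change was positive for 39 of 51 (all genes: 48.6%), with a median log2 fold change of 0.13 against -0.01 over all genes, and both 5xFAD-P522R libraries lay above both 5xFAD-M28L libraries for 25 members (all genes: 20.7%) and below for 7 (21.3%). Positive signs were found in 11 of 12 glycosidases and sulfatases, 7 of 8 V1 and 6 of 7 V0 subunits, 6 of 9 cathepsins, 5 of 6 lipid genes, 3 of 5 membrane proteins, 0 of 2 of the activator group and 1 of 2 regulators. Without 5xFAD-P522R replicate 3 the median was 0.10, with 35 of 51 signs positive, 4 members at an unadjusted p under 0.05 and 0 called. With the sub-cluster that held oligodendrocyte markers kept, an alternative added after the data had been seen, the median was 0.08, with 31 positive signs, 3 members at that p and 0 called.

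The member with the smallest p was Ctsz. It was at 127 and 117 CPM in 5xFAD-M28L, 177 and 148 in 5xFAD-P522R and 120 and 139 in 5xFAD, a log2 fold change of 0.41 (SE 0.12, edgeR adjusted p = 0.414) between the variants, whose libraries did not overlap; it was 0.28 without 5xFAD-P522R replicate 2 and 0.53 without replicate 3. Atp6v1a was at 80.8 and 84.1 CPM in 5xFAD-M28L and 109 and 118 in 5xFAD-P522R (0.46, SE 0.16, edgeR adjusted p = 0.481). In 5xFAD it was at 80.5 and 115, a range that held both 5xFAD-M28L libraries and 5xFAD-P522R replicate 2. Cd68 was at 22.3 and 23.8 CPM in 5xFAD-M28L, 35.2 and 29.0 in 5xFAD-P522R and 17.3 and 23.4 in 5xFAD, so that the 5xFAD-P522R libraries were the 2 highest of 6. Atp6v1c1 (167 and 185 against 225 and 223 CPM, log2 fold change 0.35) and Atp6v0d1, the d subunit of V0 (106 and 105 against 140 and 115, 0.28), followed. The value of Atp6v0d1 was 0.13 without 5xFAD-P522R replicate 2 and 0.42 without replicate 3. Gla was at 1.81 and 2.71 against 4.86 and 4.33 CPM (0.99, SE 0.42), on few UMIs.

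Members with negative signs in this contrast were led by Scarb2. It was at 196 and 187 CPM in 5xFAD-M28L and 175 and 165 in 5xFAD-P522R (log2 fold change -0.17), with 171 and 175 in 5xFAD. Ctss was at 491 and 526 against 442 and 475 CPM, Psap at 259 and 246 against 234 and 213, and Atp6v0a2 at 107 and 120 against 95.8 and 94.8, none of them overlapping. Atp6v1f, the F subunit, was low, at 9.70 and 10.8 against 10.0 and 7.75 CPM, and overlapped. These 4 of the 5, Atp6v1f apart, were also lower in disease-associated-like than in homeostatic-like nuclei in each library. In nuclei with Y-linked UMIs the sign turned for Scarb2 (0.03), Ctss (0.02) and Atp6v0a2 (0.22), and without disease-associated-like nuclei for Ctss (0.02) and Atp6v0a2 (0.07). The value of Psap was -0.11 and that of Atp6v1f -0.04 without 5xFAD-P522R replicate 3.

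The share of disease-associated-like nuclei among microglia-like nuclei moved with this contrast. It was 11.4% and 15.02% in 5xFAD-M28L, 42.0% and 42.5% in 5xFAD-P522R, and 14.2% and 42.2% in 5xFAD. Without the disease-associated-like nuclei, the median of the members was 0.04, 32 of the 50 members tested had a positive sign, and 0 had an unadjusted p under 0.05. Nuclei with Xist UMIs alone gave a median of 0.05, and those with Y-linked UMIs alone 0.11. The Xist-positive share of sexed microglia-like nuclei was 47.9% and 62.0% in 5xFAD-M28L, 76.2% and 73.2% in 5xFAD-P522R and 46.4% and 69.8% in 5xFAD; its part in the result was not tested beyond those values. The summed level of 10 astrocyte transcripts in microglia-like nuclei moved with 5xFAD-P522R too, at 885 and 877 CPM against 1234 and 1243 in 5xFAD-M28L and 1163 and 1167 in 5xFAD, without overlap. Its part in either contrast of 5xFAD-P522R was not tested.

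**Figure D3:**
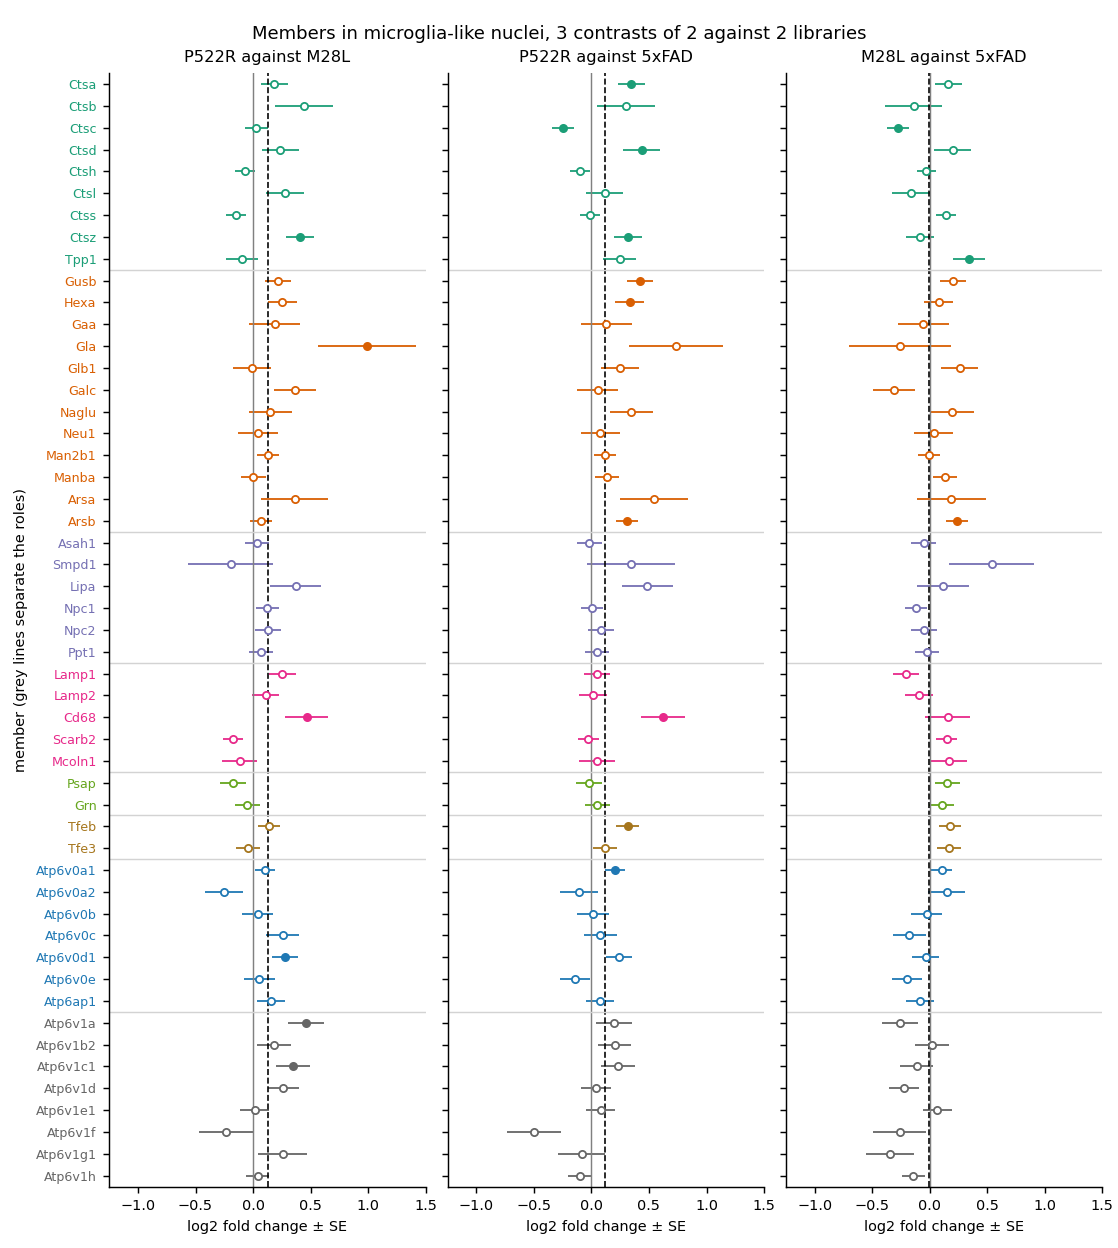
Fitted log2 fold change ± SE of the 51 members in microglia-like nuclei (rows, grouped by role) in 3 contrasts of 2 against 2 libraries; filled points have an unadjusted p under 0.05, none an adjusted p under 0.05, and dashed lines mark the medians, 0.13 for 5xFAD-P522R against 5xFAD-M28L, 0.11 for 5xFAD-P522R against 5xFAD and -0.0045 for 5xFAD-M28L against 5xFAD. Points lie mostly right of 0 in both panels with 5xFAD-P522R and on both sides in the panel of 5xFAD-M28L against 5xFAD.

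In 5xFAD-P522R against 5xFAD, 0 of 51 members were called (all genes: 0.0220%, 3 genes), and 10 had an unadjusted p under 0.05 (all genes: 9.49%), 9 of them higher. The sign was positive for 40 of 51 (all genes: 49.9%), with a median log2 fold change of 0.11; both 5xFAD-P522R libraries lay above both 5xFAD libraries for 21 members (all genes: 20.8%) and below for 5 (21.0%). All 12 glycosidases and sulfatases had a positive sign. Gusb was at 140 and 172 CPM in 5xFAD, 217 and 203 in 5xFAD-P522R and 173 and 187 in 5xFAD-M28L (log2 fold change 0.42, SE 0.11, edgeR adjusted p = 0.483). The libraries of the 2 groups did not overlap, nor did they for Cd68 (0.62, SE 0.19, edgeR adjusted p = 0.483). Left out in turn, the 5xFAD libraries gave 0.28 (without replicate 2) and 0.59 (without replicate 3) for Gusb, and 0.44 and 0.89 for Cd68.

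Tfeb was at 113 and 107 CPM in 5xFAD and 141 and 132 in 5xFAD-P522R, Arsb at 365 and 406 against 452 and 502, and Ctsa, the carboxypeptidase that protects Neu1 and Glb1, at 83.2 and 102 against 119 and 118. The 5xFAD-P522R libraries were above the 5xFAD libraries for each. Ctsd was at 185 and 276 CPM against 327 and 300 (0.44), with the lower 5xFAD value in replicate 2. On the negative side, Ctsc was at 185 and 176 CPM in 5xFAD and 154 and 150 in 5xFAD-P522R (-0.25), and Atp6v1f at 13.2 and 11.6 against 10.0 and 7.75 (-0.50). Ctsh (208 and 212 against 191 and 200 CPM), Atp6v0e (38.6 and 41.7 against 36.0 and 36.9) and Atp6v1h (130 and 127 against 118 and 121) also did not overlap, with log2 fold changes of -0.14 to -0.10. In nuclei with Y-linked UMIs the sign turned for Gusb (-0.08), Arsb (-0.02), Atp6v1f (0.07), Ctsh (0.11) and Atp6v1h (0.0020). Ctsa had 0.22 without 5xFAD replicate 2, Atp6v0e -0.07 without 5xFAD replicate 3 and Atp6v1f -0.30 without 5xFAD-P522R replicate 3.

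Here 1 library moved the count. Without 5xFAD replicate 2 the median was 0.07, 32 of 51 signs were positive and 0 members were called. Without 5xFAD replicate 3, which leaves replicate 2 alone for its group and assumes that it varies like the others, the median was 0.21, and 870 of 14078 genes (6.18%) were called, 12 members among them: Arsb, Atp6v1a, Atp6v1b2, Atp6v1c1, Cd68, Ctsa, Ctsb, Ctsd, Glb1, Gusb, Hexa and Lipa. Without 5xFAD-P522R replicate 3 the median was 0.11, with 37 positive signs and 0 called.

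**Figure D4:**
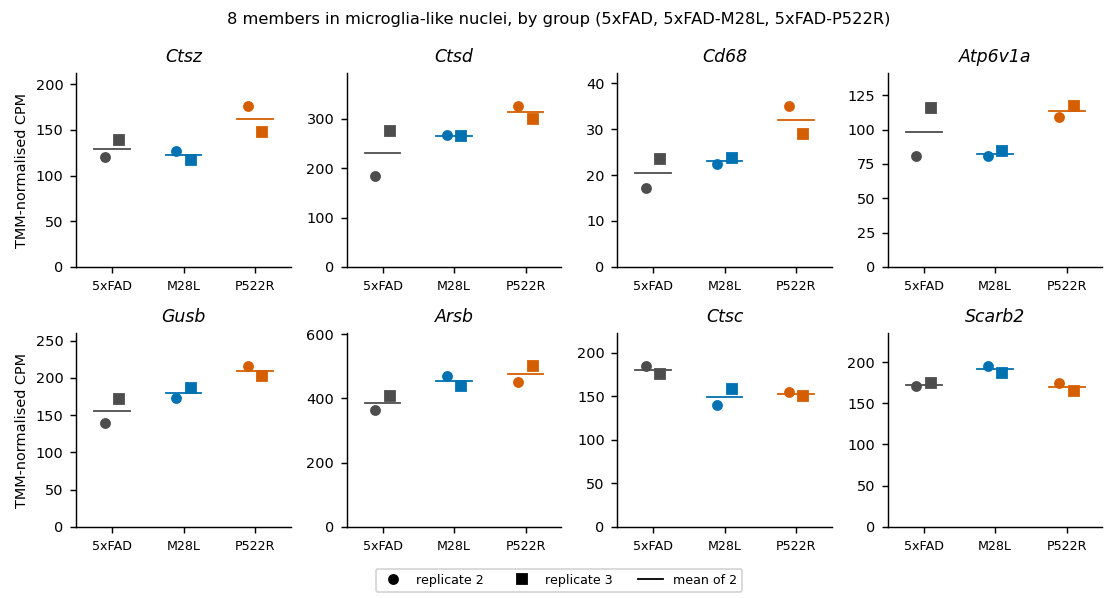
TMM-normalised CPM of 8 members in microglia-like nuclei by group; circles are replicate 2, squares replicate 3 and lines the mean of 2. The 5xFAD-P522R libraries are the 2 highest for Ctsz, Ctsd, Cd68 and Gusb, and the 5xFAD libraries the 2 highest for Ctsc.

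In 5xFAD-M28L against 5xFAD, 0 of 51 members were called (all genes: 0.00734%, 1 gene), and 3 had an unadjusted p under 0.05 (all genes: 6.36%). Signs were even, 25 positive of 51 (all genes: 49.2%), with a median of -0.0045; the libraries of the groups did not overlap for 24 members (all genes: 35.0%), 12 of them higher and 12 lower in 5xFAD-M28L. The 3 members were Ctsc, at 140 and 158 CPM in 5xFAD-M28L against 185 and 176 in 5xFAD (log2 fold change -0.28, SE 0.10, edgeR adjusted p = 0.771), Arsb, at 471 and 440 against 365 and 406 (0.24), and Tpp1, the tripeptidyl peptidase, at 55.3 and 50.1 against 42.2 and 41.1 (0.34). None of the 3 overlapped between the groups. In nuclei with Y-linked UMIs the sign of Arsb turned (-0.09), as did those of Tfeb (-0.03) and Gusb (-0.02), and in nuclei with Xist UMIs the median was 0.18. Ctsc was lower in both variants than in 5xFAD, which both contrasts share.

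Of the further named members, Tfeb was at 122 and 126 CPM in 5xFAD-M28L (0.18), above 5xFAD. Lamp1, a major glycoprotein of the lysosomal membrane, was at 73.8 and 74.1 CPM against 78.6 and 91.5 (-0.21), Atp6v1d at 36.6 and 40.2 against 42.4 and 47.2 (-0.23), and Galc at 51.4 and 63.6 against 58.1 and 83.6 (-0.31). The Galc libraries overlapped, and those of Lamp1 and Atp6v1d did not. Without 5xFAD replicate 3 the values were -0.0094 for Galc, -0.09 for Lamp1 and -0.14 for Atp6v1d, and without 5xFAD replicate 2 -0.53 for Galc. Of the V1 subunits 6 of 8 had a negative sign, Atp6v1a among them (-0.26), whose sign turned without 5xFAD replicate 3 (0.04). The medians without 5xFAD replicate 2 and without replicate 3 were -0.05 and 0.10.

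Of 92 further lysosomal and related genes in 6 lists (other enzymes, pump subunits, membrane proteins, delivery, nutrient sensing and cathepsin inhibitors), none was called in microglia-like nuclei. Atp6v0d2, an isoform of the d subunit that macrophages and osteoclasts express and a marker used for the disease-associated-like state, had the smallest p, at 3.84 and 4.83 CPM in 5xFAD-M28L and 31.7 and 29.7 in 5xFAD-P522R (log2 fold change 2.81, SE 0.33, edgeR adjusted p = 0.059), with 11.6 and 22.9 in 5xFAD. Rragd, a Rag GTPase of the nutrient-sensing pathway and a TFEB target, was at 9.48 and 9.28 against 22.3 and 25.8 CPM (1.36), and Gnptab, which makes the mannose-phosphate tag of lysosomal enzymes, at 81.2 and 81.8 against 118 and 125 (0.57). Among genes with negative signs were the sorting receptor Sort1 (-0.33) and the asparaginyl endopeptidase Lgmn (-0.21). In the same contrast 10 of 22 other lysosomal enzymes and 14 of 18 other membrane proteins and transporters had a positive sign, with medians of -0.02 and 0.07.

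At a fixed state, the contrasts were fitted again in each of 4 states. In disease-associated-like nuclei (130 to 727 per library), 49 members were tested in 10287 genes, Gla and Smpd1 being too low. In 5xFAD-P522R against 5xFAD-M28L, 0 of 49 were called (all genes: 0.826%, 85 genes) by edgeR, and 9 had an unadjusted p under 0.05 (all genes: 9.23%), 8 of them higher. The median was 0.18 against 0.00 over all genes, and 37 of 49 had a positive sign.

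Signs within the V1 sector were uniform here. All 8 V1 subunits had a positive sign, with log2 fold changes of 0.11 to 0.50 and a median of 0.22. Atp6v1c1 was at 198 and 199 CPM in 5xFAD-M28L, 277 and 283 in 5xFAD-P522R and 222 and 285 in 5xFAD (0.50, SE 0.13, edgeR adjusted p = 0.0767), and Lamp1 at 74.6 and 61.7, 98.0 and 110, and 87.8 and 99.7 (0.64, SE 0.19, edgeR adjusted p = 0.139). For both genes the 5xFAD-M28L libraries were the 2 lowest of 6. Ctsb was at 283 and 350 against 399 and 421 CPM (0.36), and Arsb went the other way, at 602 and 653 against 503 and 557 (-0.24). Without 5xFAD-M28L replicate 2 Ctsb had 0.22 (edgeR adjusted p = 0.723). In the clustering without lysosomal genes the values were 0.39 for Atp6v1c1, 0.41 for Lamp1 and 0.25 for Ctsb. DESeq2 gave an adjusted p to 7 of the 49 members, none of them called, and to neither Atp6v1c1 (0.49, SE 0.19) nor Lamp1 (0.63, SE 0.27). At an unadjusted p under 0.05 it had 4 members. Without 5xFAD-P522R replicate 3 edgeR called 0, with a median of 0.17 and 7 of 8 V1 signs positive.

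Outside the members, 2 genes of the further lists were called by edgeR in this state. Atp6v0d2, which as a state marker helped define these nuclei, was at 27.7 and 22.0 CPM in 5xFAD-M28L, 73.5 and 65.5 in 5xFAD-P522R and 77.0 and 48.7 in 5xFAD (1.51, SE 0.27, edgeR adjusted p = 0.00232), and it was lower in 5xFAD-M28L than in 5xFAD too (-1.21, edgeR adjusted p = 0.0428). Fnip2, a partner of folliculin in nutrient sensing at the lysosome, was at 798 and 749 against 1116 and 1015 CPM (0.46, edgeR adjusted p = 0.0255). Neither call between the variants held without 5xFAD-M28L replicate 3 (log2 fold changes of 1.32 and 0.43, edgeR adjusted p = 0.169 and 0.264) or in the clustering without lysosomal genes (1.29 and 0.36, edgeR adjusted p = 0.0916 and 0.361). The Fnip2 call was also lost without replicate 2 of 5xFAD-M28L (0.0692) or of 5xFAD-P522R (0.302), and that of Atp6v0d2 against 5xFAD without 5xFAD replicate 2 (0.133) or either library of 5xFAD-M28L (0.061 and 0.539).

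In 5xFAD-M28L against 5xFAD in disease-associated-like nuclei, 0 members were called (all genes: 0.632%), 7 had an unadjusted p under 0.05 (all genes: 9.85%), the median was -0.08 and 7 of 8 V1 subunits had a negative sign; without 5xFAD replicate 2 the median was -0.10. Ctsc again had the smallest p, at 142 and 116 CPM against 174 and 184 (-0.51, SE 0.16, edgeR adjusted p = 0.167). In 5xFAD-P522R against 5xFAD, 0 were called (all genes: 0.0486%), 4 had an unadjusted p under 0.05 (all genes: 6.03%), led by Ctsd at 424 and 384 against 319 and 342 CPM (0.27), and the median was 0.10, or 0.09 without 5xFAD replicate 2. DESeq2 called 0 members in both, of the 9 and the 49 to which it gave an adjusted p.

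In homeostatic-like nuclei, 0 of 49 members were called by edgeR in 5xFAD-P522R against 5xFAD-M28L (all genes: 0.0443%), with 2 at an unadjusted p under 0.05 (all genes: 5.61%) and a median of -0.01. In 5xFAD-M28L against 5xFAD 0 were called (all genes: 0.00886%), with 3 at that p (all genes: 5.89%), and in 5xFAD-P522R against 5xFAD 0 (all genes: 0.115%), with 3 (all genes: 9.39%). In transitional or cytokine-like nuclei the counts at that p, in the same order of contrasts, were 1 (all genes: 6.42%), 10 (all genes: 7.17%) and 5 (all genes: 6.87%) of 49, with 0 called each time (all genes: 0.194%, 0.126% and 0.0776%). In interferon-responsive-like nuclei they were 1 (all genes: 6.42%), 3 (all genes: 7.67%) and 4 (all genes: 7.32%) of 44, again with 0 called (all genes: 0.229%, 0.198% and 0.107%), by DESeq2 also. The medians of the variant contrast were 0.06 and 0.01 in these 2 states. Without 5xFAD replicate 2 the homeostatic-like medians of 5xFAD-M28L and of 5xFAD-P522R against 5xFAD went from 0.04 and 0.05 to -0.02 and -0.02. The interferon-responsive-like median went from 0.15 to 0.08 in the former contrast, and from 0.05 to 0.14 in the latter without 5xFAD-P522R replicate 3. Differences between states in their response were not tested.

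In the 9 other cell types, each member was tested wherever it passed the filter on low counts, 395 tests per contrast. By edgeR 0 were called in 5xFAD-P522R against 5xFAD-M28L (all genes: 0.0101%), with 21 at an unadjusted p under 0.05 (all genes: 5.82%). For 5xFAD-M28L against 5xFAD 0 were called (all genes: 0.00303%), with 27 (all genes: 7.50%), and for 5xFAD-P522R against 5xFAD 0 (all genes: 0.0243%), with 36 (all genes: 8.89%). DESeq2 called 3 in the contrast of 5xFAD-M28L with 5xFAD (all genes: 0.207%, 205 calls), namely Psap in oligodendrocyte-like and OPC-like and Arsb in OPC-like nuclei, and 0 in the others; it gave an adjusted p in 310 of these 395 tests, and in 279 and 339 in the contrasts of 5xFAD-P522R with 5xFAD-M28L and with 5xFAD. Without 5xFAD replicate 2 edgeR had 19, 15 and 19 tests at an unadjusted p under 0.05 in the order given above, and without 5xFAD-P522R replicate 3 it had 11, 24 and 24, with 0 called.

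Psap and Arsb were among the members nearest to a call outside microglia. In oligodendrocyte-like nuclei it was at 104 and 117 CPM in 5xFAD, 150 and 153 in 5xFAD-M28L and 128 and 129 in 5xFAD-P522R, 3 groups without overlap (5xFAD-M28L against 5xFAD 0.45, SE 0.08, edgeR adjusted p = 0.328). In OPC-like nuclei the values were 103 and 99.5, 126 and 138, and 122 and 121 (0.38, SE 0.07, edgeR adjusted p = 0.307). Both variants thus lay above 5xFAD in these 2 types. In astrocyte-like nuclei Psap was at 172 and 151, 196 and 174, and 205 and 232 CPM, where 5xFAD-P522R was highest (against 5xFAD 0.43, SE 0.12, edgeR adjusted p = 0.312). In microglia-like nuclei it was at 250 and 205, 259 and 246, and 234 and 213. There 5xFAD overlapped both variants, which did not overlap each other.

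**Figure D5:**
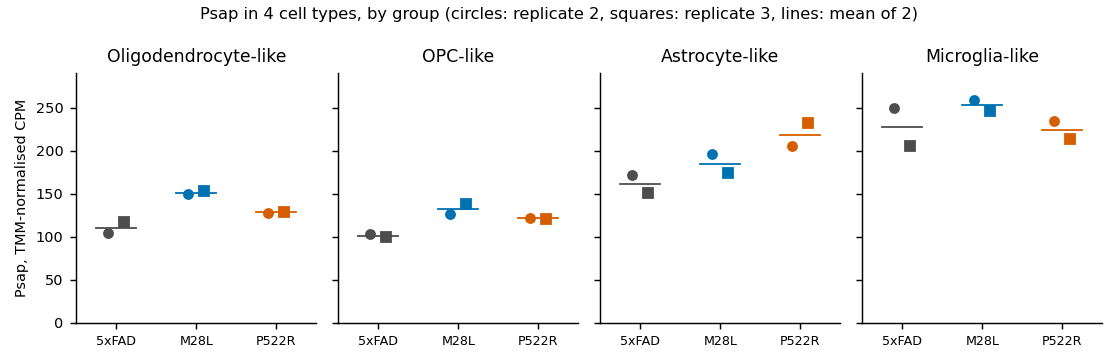
TMM-normalised CPM of Psap in 4 cell types by group; circles are replicate 2, squares replicate 3 and lines the mean of 2. The 5xFAD libraries are the 2 lowest of 6 in oligodendrocyte-like, OPC-like and astrocyte-like nuclei, and not in microglia-like nuclei.

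Arsb, Ctsa and Tfeb are given here for the oligodendrocyte lineage. Arsb in OPC-like nuclei was at 208 and 213 CPM in 5xFAD, 263 and 251 in 5xFAD-M28L and 261 and 244 in 5xFAD-P522R (5xFAD-M28L against 5xFAD 0.29, SE 0.06, edgeR adjusted p = 0.307), and Ctsa at 12.3 and 11.5, 17.4 and 19.5, and 15.6 and 15.4 (0.62, SE 0.14). The 5xFAD libraries were the 2 lowest for both. Tfeb in oligodendrocyte-like nuclei was at 114 and 122, 141 and 122, and 150 and 143 CPM (5xFAD-P522R against 5xFAD 0.31, SE 0.09, edgeR adjusted p = 0.328). Both contrasts share the 5xFAD libraries, and calls of these genes depended on the fit: without the filter on low counts edgeR called 4 in 5xFAD-M28L against 5xFAD (Psap in both types, and Arsb and Ctsa in OPC-like nuclei; all genes: 0.960%). In 5xFAD-P522R against 5xFAD it then called 3 (all genes: 1.55%), of which Arsb in OPC-like nuclei is described above and Ctsd in astrocyte-like and Ctsh in neuron-like nuclei are not.

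Some members share their place in the genome with other genes. In GENCODE M21 on GRCm38, some of the gene bodies overlap another gene, Glb1 on the same strand (with Tmppe) and others on the other strand, among them Ctsb with Fdft1, Ctsz with Nelfcd, Lamp1 with Grtp1, Hexa with Tmem202 and Atp6v0a2 with a long non-coding gene. How reads in introns and in overlaps were assigned is not given in the sources used here, so their values may include RNA of the partner. Psap (chromosome 10, 60277627 to 60302597), Atp6v1c1 (chromosome 15, 38661933 to 38692446), Cd68 (chromosome 11, 69664213 to 69666153) and Ctsd (chromosome 7, 142375911 to 142388038) overlap no other annotated gene.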

How the data were processed

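Each library came as a matrix of unnormalised UMI counts, which the authors deposited. Cell Ranger 6.1.2 and mm10 are named in the submitters' processing notes, and per the file headers 5xFAD-P522R replicate 3 was made with 5.0.1. Barcodes had to hold 500 or more UMIs and 300 or more genes, with mitochondrial UMIs no higher than 5%, which kept 62651 of 62687 barcodes; 2566 doublets called with Scrublet were removed (at the same threshold, 0.311, in each library, 3.67% to 4.68%), and 20 to 71 barcodes were shared per pair of libraries. Nuclei were clustered with scanpy 1.11.5 (2000 genes, 30 components, Leiden resolution 1), clusters were named from marker lists (3 of 32 left unnamed), and microglia-like nuclei were clustered again (1000 genes, resolution 0.5). Counts were summed per library and cell type or state with at least 20 nuclei in every library. They were tested with edgeR 4.0.16 (filterByExpr, minimum count 10, TMM), with DESeq2 1.42.0 as an alternative. The edgeR code was first run on simulated data with the gene means and library sizes of microglia-like nuclei. That simulation had the same spread for every gene and no replicate effect, so it does not cover the other cell types. With 2 libraries on each side the smallest exact permutation p would be 0.333, so none was run.

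The members and lists were chosen with earlier results of these data known. Values per library are given for the 5 members with the smallest p per direction and contrast in microglia-like nuclei, any member called in any cell type, the member of each role with the widest range over cell types and up to 3 genes of the further lists per direction and contrast; other genes were named after their values had been seen. Alternatives were other scaling, filters and tests, each library left out, doublets kept, nuclei of 1 sex, another resolution and clustering without lysosomal genes.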

Additional observations from a re-analysis of the deposited data

How the results depend on the processing

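In microglia-like nuclei the count of 0 called members held in each contrast under RLE scaling, a minimum count of 50, DESeq2, at least 1000 UMIs, doublets kept, another resolution and nuclei of 1 sex. Without a filter on low counts it was 2 in both contrasts of 5xFAD-P522R, beside 1.88% (variants) and 2.37% of 22118 genes, and with only the 4 libraries compared 2 for the variants (Atp6v1a, Atp6v1c1), beside 2.42% of genes. Leaving out 1 library gave 0 to 2 for the variants, 0 to 1 for 5xFAD-M28L against 5xFAD and 0 to 12 for 5xFAD-P522R against 5xFAD, the highest each time without 5xFAD replicate 3, where 320, 62 and 870 of 14078 genes were called (2.27%, 0.440% and 6.18%). The medians ranged over left-out libraries from 0.1008 to 0.1634, -0.04822 to 0.09688 and 0.06977 to 0.2103. They moved by more than the spread between replicates (SD 0.0675) in Xist-positive nuclei (0.04957, 0.1789 and 0.1815) and without disease-associated-like nuclei (0.03514 for the variants and 0.08291 for 5xFAD-M28L against 5xFAD). The causes were not tested.

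The replicate block called 0 members in microglia-like nuclei, where calls over all genes went from 1, 1 and 3 to 107, 39 and 162. It called 6 in the other types in each contrast with 5xFAD (without it 0), beside 2.06% and 2.24% of all tests, and 1 in disease-associated-like (Atp6v1c1, variants, edgeR adjusted p = 0.0484, beside 103 genes) and 1 in homeostatic-like nuclei (Arsb, 5xFAD-P522R against 5xFAD, beside 233 genes). Deviations of libraries of the same number correlated at 0.446, 0.213 and 0.2995 over 6916 genes; the labels give 2 numbers per group and do not say that they mark a shared source, so the numbers were not used as pairs. In the other types, no filter gave 4 and 3 calls in the contrasts of 5xFAD-M28L and of 5xFAD-P522R with 5xFAD and DESeq2 3 and 0 (beside 0.207% and 0.315% of all tests); leaving out libraries gave 0 to 1 in the last. In homeostatic-like nuclei 0 to 1 was called when libraries were left out in 5xFAD-P522R against 5xFAD (Arsb), and in transitional or cytokine-like nuclei 0 to 1 in both contrasts with 5xFAD (Ctsc). Per nucleus 9 members, against 18 in CPM, were highest in microglia-like nuclei.

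The named members were chosen for small p-values in these same counts. The alternatives reuse the same libraries, so a kept sign is not independent evidence. Of 570 alternative values of named members 544 kept sign and side, 11 became called and 15 turned sign. In Y-positive nuclei these were Scarb2 0.03309, Ctss 0.02292 and Atp6v0a2 0.2232 (variants), Arsb -0.08683, Tfeb -0.02844 and Gusb -0.01703 (5xFAD-M28L against 5xFAD), and Gusb -0.07905, Arsb -0.02363, Atp6v1f 0.0664, Ctsh 0.1148 and Atp6v1h 0.002021 (5xFAD-P522R against 5xFAD). Without disease-associated-like nuclei Ctss was 0.02164 and Atp6v0a2 0.0714 (variants), and for 5xFAD-M28L against 5xFAD Atp6v1a had 0.01632 in Xist-positive nuclei and a range over left-out libraries of -0.4846 (5xFAD replicate 2) to 0.0355 (5xFAD replicate 3). Gla and Smpd1, with 93 and 88 UMIs over all microglia-like nuclei, are limited by depth.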
